A study of Drosophila melanogaster with 33 samples.

Results

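The X chromosome of Drosophila melanogaster carried 12137 of the 94396 peaks in 13 ChIP-seq peak lists of S2 cells. A peak was counted when its chromosome field read X, and the heterochromatic scaffold of X was left out. X was set against the large autosomal arms 2L, 2R, 3L and 3R, which held 62274 peaks together. Its peaks numbered from 292 in the Ser2P list of S2 cells to 1782 in the GAF list of S2-AbdA cells. On build dm3 the peaks of X reached position 22415683, and X made up 18.8% of the joint span of the 5 arms.

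Chromatin immunoprecipitation with sequencing was done in S2-AbdA cells, an S2-DRSC line stably transfected with the Hox protein AbdA carrying an HA tag, and in S2-DRSC cells without that transgene, labelled wild type. Both lines had 10 µM copper sulphate for 24 h, and S2-DRSC is a late-embryo line. The HA antibody marked AbdA in S2-AbdA cells, and Rpb3, Ser2P, M1BP, GAF, dRing and E(z) were each profiled in both lines with 2 replicates. A single line stood for each condition, so the effect of AbdA and any other difference between the cultures cannot be told apart.

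In flies, males carry a single X, and the MSL complex raises transcription from it so that its output matches that of the autosomes. S2 cells are of male type and carry this dosage compensation. Rpb3 is a core subunit of RNA polymerase II, and Ser2P is the phosphorylated polymerase that elongates along gene bodies. M1BP binds the Motif 1 element of many constitutive promoters, and GAF binds GA-rich repeats at promoters with paused polymerase and at Polycomb response elements. E(z) is the histone methyltransferase of Polycomb complex PRC2, and dRing is the ubiquitin ligase of PRC1. None of the 13 lists marked the MSL complex.

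The authors deposited a single peak list per antibody and line for both replicates. No comparison below therefore has a replicate error or a test, and X is described as the lowest, the highest or within the range of the 4 autosomal arms. Exact 95% intervals cover counting error only, and neighbouring peaks of a list are not independent. Read depth is unknown, and so is the number of X copies per autosome in either line. The GAF list of S2-AbdA cells shared its input code, C, with HA-AbdA, whereas the other factors had code D in that line and code B in S2 cells, so line and input cannot be told apart. In 9 lists, both of Ser2P, M1BP, dRing and E(z) and the GAF list of S2 cells, 20.1% to 61.2% of all peaks lay outside the 5 arms and chromosome 4. At most 0.629% did in the other 4 lists. Those 9 lists shared peaks at recurrent sites, defined as merged regions with peaks of at least 6 of the 9. X had 186 such sites, or 8.3 per Mb, against 11.4 to 13.0 per Mb on the autosomal arms. For several results below, the value without peaks at these sites is given as well.

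Most factors had fewer peaks per Mb on X than on every large autosomal arm. HA-AbdA had 67.2 peaks per Mb on X, against 85.5 on 2L, 92.9 on 2R, 98.1 on 3L and 87.1 on 3R. E(z), the PRC2 enzyme, had 22.6 peaks per Mb on X in S2-AbdA cells, against 34.0 to 37.1 on the autosomal arms. X was the lowest of the 5 arms in 10 of 13 lists and within the autosomal range in the other 3, which were both GAF lists and the Ser2P list of S2-AbdA cells.

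The ratio of peak density on X to that on the pooled autosomal arms had a median of 0.844 over the 13 lists. The Polycomb factors and AbdA had the lowest ratios. E(z) gave 0.638 (95% interval 0.58 to 0.701) in S2-AbdA cells and 0.687 (0.628 to 0.749) in S2 cells. dRing gave 0.70 (0.64 to 0.765) in S2-AbdA cells and 0.741 (0.669 to 0.82) in S2 cells. HA-AbdA gave 0.74 (0.70 to 0.782), next to the ratio of dRing in S2 cells.

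M1BP and total polymerase lay between those factors and parity. The ratio for M1BP was 0.835 (0.774 to 0.90) in S2-AbdA cells and 0.862 (0.803 to 0.924) in S2 cells. Rpb3 gave 0.844 (0.797 to 0.893) in S2-AbdA cells and 0.888 (0.841 to 0.938) in S2 cells. Elongating polymerase and GAF were close to equal density on X and autosomes. Ser2P gave 1.03 (0.946 to 1.12) in S2-AbdA cells and 0.924 (0.811 to 1.05) in S2 cells. When the recurrent sites were left out, the Ser2P ratios were 1.15 in S2-AbdA cells and 1.10 in S2 cells. GAF gave 1.003 (0.952 to 1.06) in S2-AbdA cells and 0.949 (0.884 to 1.02) in S2 cells. Each of these 4 intervals spans 1.

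**Figure D1:**
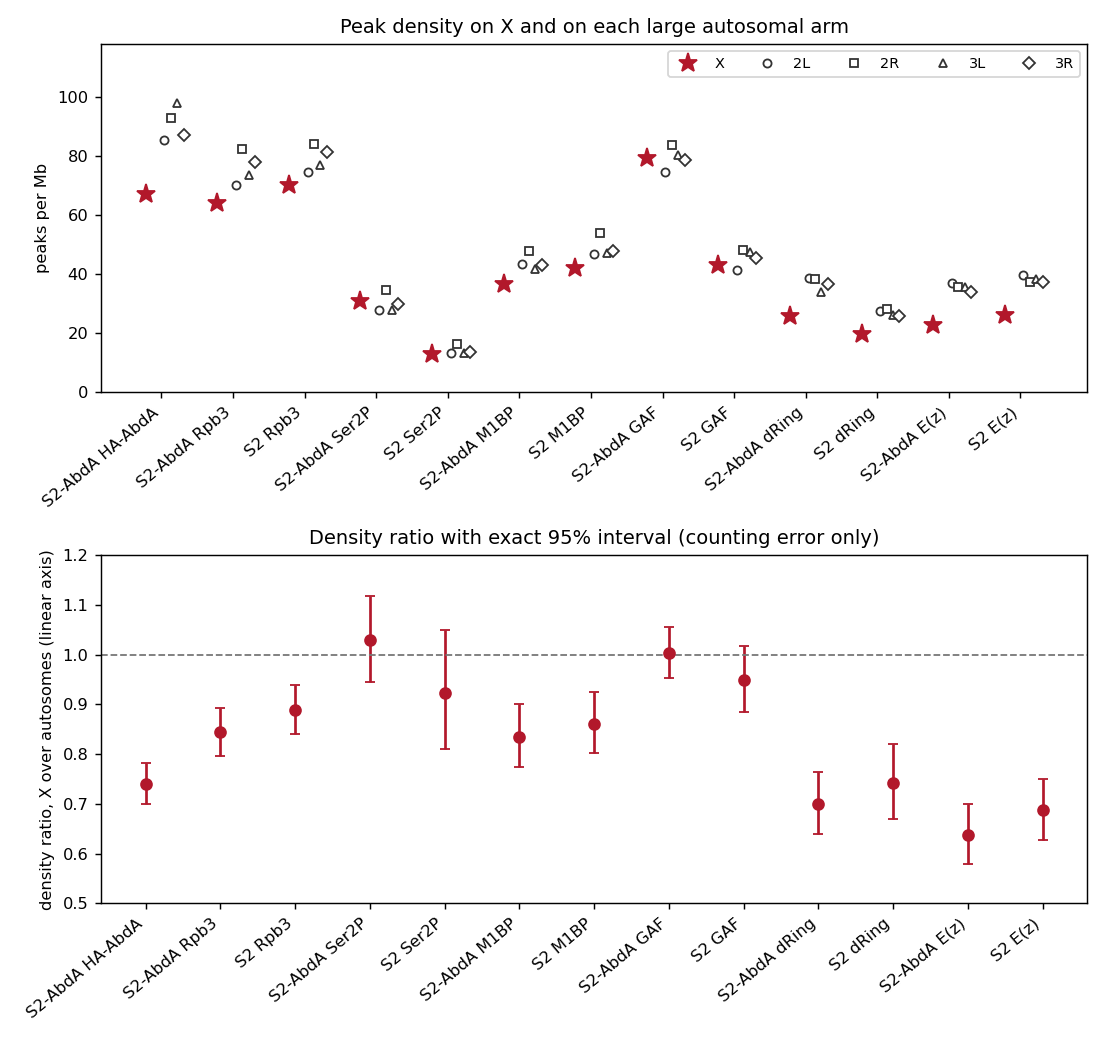
The upper panel plots peaks per Mb on X (stars) and on 2L, 2R, 3L and 3R (open symbols) for each of the 13 lists. The lower panel plots the density on X divided by that on the pooled autosomal arms, with exact 95% intervals for counting error; HA-AbdA, dRing and E(z) lie between 0.638 and 0.741, and the intervals of both Ser2P and both GAF lists cross 1.

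The ratio of peak numbers between the lines lay outside the autosomal range on X for most factors. No interval was computed for these ratios, so counting error is not shown. Some lay close to the nearest arm, such as M1BP with 0.886 on 3L and GAF with 1.81 on 2L. On X, Ser2P had 692 peaks in S2-AbdA cells and 292 in S2 cells, a ratio of 2.37, against 2.13 on the autosomal arms. GAF had 1782 peaks on X in S2-AbdA cells and 967 in S2 cells, a ratio of 1.84 against 1.74. The GAF lists differed in another way, with 0.609% of peaks outside the 5 arms and chromosome 4 in S2-AbdA cells and 23.7% in S2 cells. X had the highest ratio of the 5 arms for Ser2P and GAF. For Rpb3, M1BP and E(z), X had the lowest ratio of the 5 arms. Rpb3 had 1439 peaks on X in S2-AbdA cells and 1577 in S2 cells, a ratio of 0.912 against 0.961. M1BP had 821 peaks on X in S2-AbdA cells and 944 in S2 cells, a ratio of 0.87 against 0.897. The ratio for E(z) was 0.864 on X, from 507 peaks in S2-AbdA cells and 587 in S2 cells, against 0.93 on the autosomal arms. For dRing the X ratio, 1.30, lay within the autosomal range, and the pooled autosomal ratio was 1.38.

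Peaks were spread along the whole of X, unevenly. Among its 22 full 1-Mb bins, HA-AbdA ranged from 39 to 106 peaks with a median of 67.5, against a median of 91 and a range of 12 to 148 over 95 autosomal bins. For E(z) in S2-AbdA cells the bins of X held 8 to 39 peaks with a median of 20.5, against an autosomal median of 34 and a range of 16 to 65. The bins of X and of the autosomes overlapped in every list. The bin with most peaks over all lists was 13000001 to 14000000, with 747 peaks, of which 106 were HA-AbdA and 117 were GAF in S2-AbdA cells. The full bin with fewest was 20000001 to 21000000, with 336 peaks, of which E(z) had 8 in each line. That bin still held 61 HA-AbdA peaks and 73 GAF peaks in S2-AbdA cells.

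Neighbouring peaks lay farther apart on X than on each autosomal arm in 7 of 13 lists and within the autosomal range in 6. The median spacing of HA-AbdA peaks was 5652 bp on X, against 4070 to 4950 bp on the autosomal arms. HA-AbdA peaks up to 10 kb apart formed 462 groups on X with a mean of 3.26 peaks, against means of 3.75 to 4.83 on the autosomal arms. Large groups were fewer on X. Groups of 10 or more peaks numbered 25 on X, against 45 on 2L, 45 on 2R, 71 on 3L and 55 on 3R.

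The group with most HA-AbdA peaks on X had 22 of them at chrX:12609563-12661629, covering 51.6% of 52.1 kb. It also held 14 E(z) peaks in each line, 12 dRing peaks in S2-AbdA cells and 10 in S2 cells. GAF had 24 peaks there in S2-AbdA cells and 17 in S2 cells. The next groups, with 18 HA-AbdA peaks each, held few Polycomb peaks. At chrX:13675995-13740216 there were 1 E(z) peak in S2-AbdA cells and 2 in S2 cells, and GAF had 11 in S2-AbdA cells and 3 in S2 cells. At chrX:20906215-20954753, GAF had 21 peaks in S2-AbdA cells and 9 in S2 cells, beside 15 Rpb3 peaks in S2-AbdA cells and 16 in S2 cells.

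Peak widths on X were mostly within the range of the autosomal arms. The median width on X was the highest of the 5 arms in 4 lists, the lowest in 1 and within the range in 8. Elongating polymerase in S2-AbdA cells had a median width of 1486 bp on X, against 1162 to 1420 bp on the autosomal arms. Its widest peak on X spanned 22656 bp. dRing in S2 cells had a median width of 500 bp on X, against 393 to 428.5 bp. Its difference from the pooled autosomal arms was 82 bp with all peaks and 5 bp without the recurrent sites. E(z) had 445 bp on X against 394 to 418 bp in S2-AbdA cells, where the difference turned without the recurrent sites, and 429 bp against 385 to 416 bp in S2 cells. HA-AbdA had the narrower peaks on X, with a median of 803.5 bp against 813 to 860 bp, a difference that turned among the higher-scoring 50% of peaks. HA-AbdA peaks covered 7.64% of X, against 9.91% to 11.5% of the autosomal arms. Over the 13 lists the covered share of X was the lowest of the 5 arms in 8 and within the range in 5.

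Scores are the authors' and have no stated unit, so each peak was ranked within its own list among the 5 arms, with 100 as the top. The mean rank on X was the lowest of the 5 arms in 6 lists: HA-AbdA, both Rpb3, both M1BP and Ser2P in S2-AbdA cells. HA-AbdA peaks had a mean rank of 46.3 on X, against 50.4 to 50.9 on the autosomal arms. Without the recurrent sites X was the lowest in 3 lists. With all peaks X was the highest in 4 lists, GAF in S2-AbdA cells, dRing in S2 cells and E(z) in both lines. dRing in S2 cells had a mean rank of 54.4 on X, against 46.0 to 51.1. Its difference from the pooled autosomal arms was 5.16 with all peaks and 1.38 without the recurrent sites. E(z) had a mean rank of 52.6 on X in each line, against 46.8 to 51.7 in S2-AbdA cells and 48.3 to 51.6 in S2 cells. Without the recurrent sites the E(z) rank was lower on X than on the pooled autosomal arms, with differences of -3.52 in S2-AbdA cells and -0.86 in S2 cells.

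The strongest peaks were distributed over the arms differently from the lists as a whole. AbdA was scarce on X among its strongest peaks. X held 9.05% (95% interval 7.36 to 10.97) of the highest-scoring 10% of HA-AbdA peaks, which is 93 of 1028, and 14.7% of the whole list. M1BP showed the opposite at the very top of its lists. X held 23.7% (20.1 to 27.7) of the highest 10% in S2-AbdA cells and 24.7% (21.2 to 28.5) in S2 cells, against 16.2% and 16.7% of the whole lists. In the next 10% of M1BP peaks, X held 9.88% in S2-AbdA cells and 9.19% in S2 cells. Without the recurrent sites, X still held 27.2% of the highest 10% of M1BP peaks in S2-AbdA cells and 26.9% in S2 cells.

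GAF in S2-AbdA cells also had many of its strongest peaks on X. X held 27.3% (24.5 to 30.3) of the highest 10% of that list and 18.9% of the whole list, and in S2 cells 19.2% (16.0 to 22.8) of the highest 10% and 18.0% of the list. For E(z) in S2-AbdA cells X held 21.3% (17.4 to 25.7) of the highest 10% and 12.9% of the list, and in S2 cells 19.4% (15.8 to 23.5) and 13.7%. The recurrent sites held most of the strongest E(z) peaks on all arms. In S2-AbdA cells they held 95.2% of the top-10% E(z) peaks of X and 90.0% of those on the autosomal arms, and in S2 cells 90.4% and 86.6%. Without these sites X held 8.99% (5.33 to 14.0) of the highest 10% of E(z) peaks in S2-AbdA cells and 10.96% (7.15 to 15.9) in S2 cells, against 11.6% and 13.0% of the lists.

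**Figure D2:**
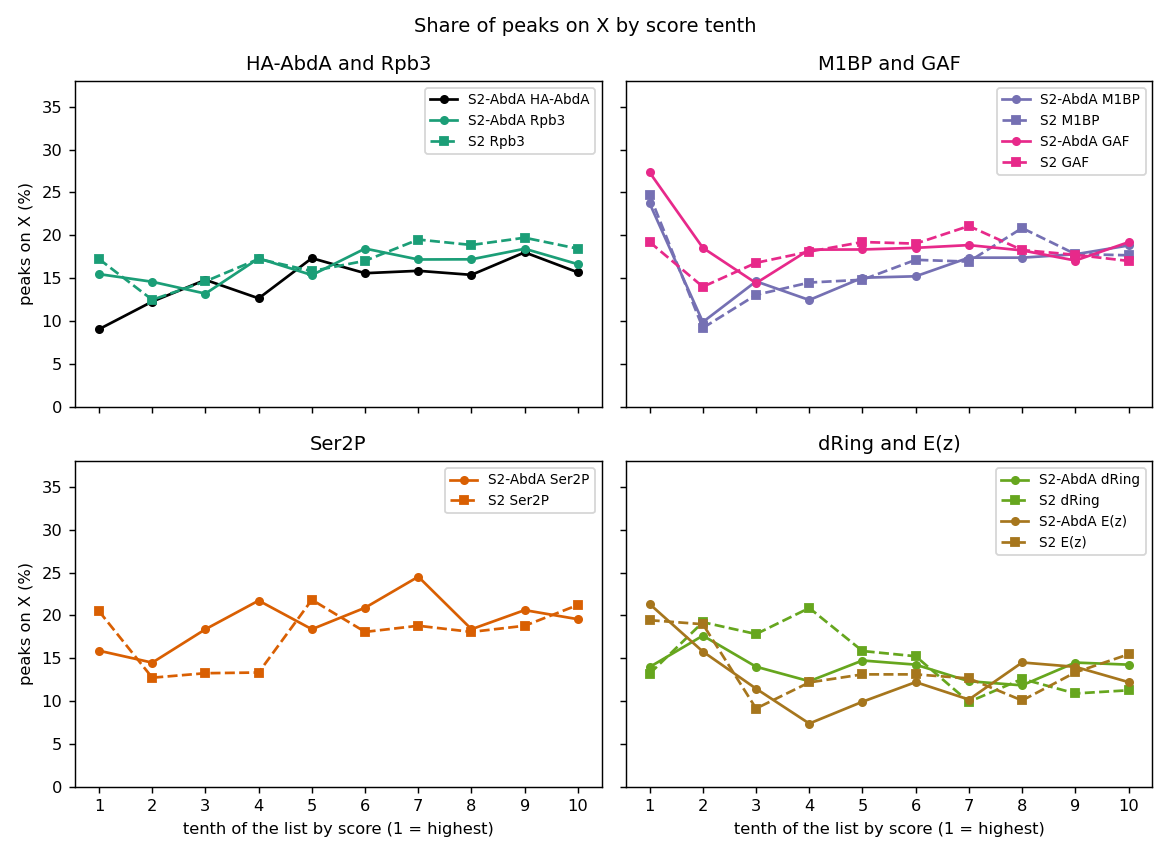
Each line gives the percentage of peaks that lay on X in successive steps of 10% of a list ordered by score, from the highest (1) to the lowest (10), with S2-AbdA lists as solid lines and S2 lists as dashed lines. M1BP falls to 9.88% and 9.19% in the second step after 23.7% and 24.7% in the first, and HA-AbdA has its lowest share, 9.05%, in the first step.

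Lists of Rpb3, M1BP and GAF in S2-AbdA cells had their highest-scoring peak of the 5 arms on X. For M1BP in S2-AbdA cells it was chrX:7969314-7969801, which also had an M1BP peak in S2 cells, HA-AbdA and a Rpb3 peak in S2 cells. For GAF in S2-AbdA cells it was chrX:7588859-7589448, with GAF in S2 cells, HA-AbdA and Rpb3 of both lines. The Rpb3 peak of S2-AbdA cells there ranked 8023 of 8785 and the HA-AbdA peak 6044 of 10273. For Rpb3 in S2-AbdA cells it was chrX:20067243-20067713, with HA-AbdA and with Ser2P and GAF of both lines. HA-AbdA itself had its best peak of X at chrX:21177040-21179118, which ranked 16 of 10273. There the GAF peak ranked 5191 of 9436 in S2-AbdA cells and 109 of 5359 in S2 cells.

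The best Polycomb peaks of X were the same places in both lines. The best dRing peak lay at chrX:8651803-8652465 in S2-AbdA cells and at chrX:8651776-8652446 in S2 cells, ranked 3 of 4141 and 4 of 3025. It carried E(z) and GAF of both lines and HA-AbdA. The HA-AbdA peak there was among the lowest of its list, ranked 9874 of 10273. E(z) there ranked 2256 of 3931 in S2-AbdA cells and 2431 of 4270 in S2 cells. The best E(z) peak, chrX:13277785-13278267 in S2-AbdA cells and chrX:13277768-13278247 in S2 cells, ranked 6 in both lists and carried HA-AbdA, Rpb3 of both lines and dRing in S2-AbdA cells. The dRing peak there ranked 3352 of 4141. The best Ser2P peaks of X looked different. The one of S2-AbdA cells, chrX:3309029-3315288, had peaks of M1BP, dRing and E(z) in both lines with nearly the same ends, such as 3309105 to 3315273 for E(z) in S2-AbdA cells, and no HA-AbdA or Rpb3 peak. The one of S2 cells was chrX:21405503-21416120, which overlapped 9 other lists and again neither HA-AbdA nor Rpb3.

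A smaller share of each factor's peaks overlapped an HA-AbdA peak on X than on any of the autosomal arms, in 12 of 12 factor lists. An overlap of 1 bp was counted. For M1BP in S2-AbdA cells, 385 of 821 peaks on X had HA-AbdA, or 46.9% (95% interval 43.4 to 50.4), against 60.6% on 2L, 62.5% on 2R, 66.4% on 3L and 66.6% on 3R. For E(z) in S2-AbdA cells, 226 of 507 peaks on X had HA-AbdA, or 44.6% (40.2 to 49.0), against 56.6% to 65.96% on the autosomal arms. Both intervals lie below the lowest autosomal arm. With the recurrent sites left out, the difference for E(z) from the pooled autosomal arms was -7.18 percentage points in S2-AbdA cells (-18.1 with all peaks) and -9.10 in S2 cells (-16.4).

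The gap was present for each factor in both lines, and its size varied. It also depended on how overlap was defined. With peak centres within 250 bp, X was still the lowest arm in 12 of 12 lists, but the differences from the pooled autosomal arms ran from -11.9 to -2.30 points, against -18.1 to -7.11 with a 1 bp overlap. For GAF in S2-AbdA cells the difference was then -2.30 points (-11.0 with 1 bp) and for Rpb3 in S2-AbdA cells -4.00 (-11.1). The share for Rpb3 was 57.0% on X against 68.1% on the pooled autosomal arms in S2-AbdA cells, and 54.4% against 66.02% in S2 cells. For Ser2P it was 49.9% against 60.8% in S2-AbdA cells and 44.2% against 62.1% in S2 cells. GAF had the smallest gap in S2 cells, 50.1% against 57.9%, and in S2-AbdA cells it had 48.2% against 59.2%. The S2 lists were made from cells without AbdA, so those shares describe sites that AbdA occupies in the other line. M1BP in S2 cells had 49.3% against 64.8%, and E(z) in S2 cells had 48.9% against 65.3%.

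For dRing the direction depended on the recurrent sites. The share was 44.2% on X against 51.3% on the autosomal arms in S2-AbdA cells and 44.8% against 58.4% in S2 cells. Without the recurrent sites, the dRing share on X exceeded that on the autosomal arms by 2.36 percentage points in S2-AbdA cells and by 3.55 in S2 cells. X then remained the lowest arm in 10 of 12 lists. The share on X divided by the autosomal share ran from 0.711 to 0.865 over the 12 lists, beside the density ratio of HA-AbdA itself, 0.74. Whether the lower density of AbdA peaks on X had a part in the lower shares was not tested.

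The lower AbdA shares ran along X and were not set by a single stretch of it. In S2-AbdA cells, 20 of 22 bins of X with at least 20 Rpb3 peaks lay below the median of the autosomal bins, and 20 of 21 did for M1BP. For GAF 21 of 23 bins of X did, and for E(z) 14 of 16. For dRing the number was 12 of 17. Bins of X still ranged widely, from 16.0% to 73.8% for M1BP, and overlapped the autosomal range of 23.8% to 86.2%.

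**Figure D3:**
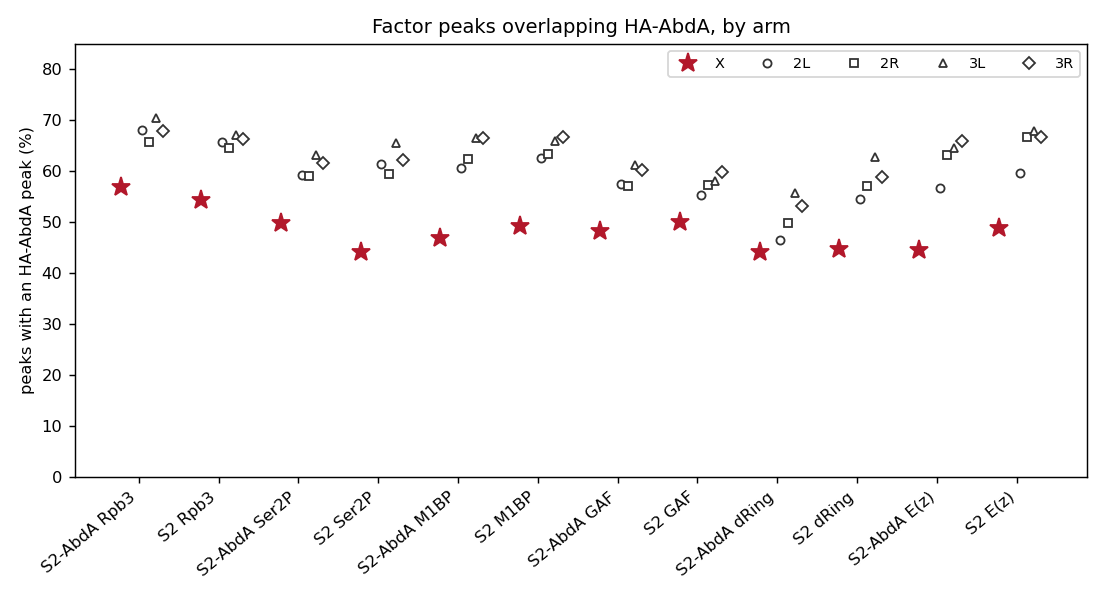
The vertical axis gives the percentage of each factor's peaks that overlap an HA-AbdA peak, on X (stars) and on 2L, 2R, 3L and 3R (open symbols), for the 12 factor lists. The star lies below the 4 autosomal arms in all 12 lists. The smallest gap to an autosomal arm is that of dRing in S2-AbdA cells, where X had 44.2% and 2L had 46.5%.

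Seen from AbdA, the partners of its peaks on X were more often GAF and less often Polycomb or M1BP. In S2-AbdA cells, 717 of 1506 HA-AbdA peaks on X overlapped GAF, or 47.6% (45.1 to 50.2), against 40.01% to 43.8% on the autosomal arms. GAF sites of S2 cells showed the same order, with 31.3% (29.0 to 33.8) on X against 25.7% to 29.1%, an interval that reached the highest autosomal arm. E(z) of S2-AbdA cells overlapped 14.3% (12.5 to 16.1) of HA-AbdA peaks on X, against 20.4% to 22.7%. Peaks with dRing or E(z) made up 23.3% of HA-AbdA peaks on X, against 28.2% to 31.2%. The density ratios of the partners in S2-AbdA cells had the same order, 1.003 for GAF, 0.835 for M1BP, 0.70 for dRing and 0.638 for E(z). Whether partner density had a part in these shares was not tested.

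M1BP of S2-AbdA cells overlapped 25.4% (23.2 to 27.7) of HA-AbdA peaks on X, against 27.5% to 31.8% on the autosomal arms. For M1BP of S2 cells the share was 30.2% (27.9 to 32.6), against 30.7% to 35.1%. Both intervals reached the lowest autosomal arm. HA-AbdA peaks with GAF and no M1BP made up 37.8% on X, against 29.4% to 31.8%. The share with Rpb3 was within the autosomal range, at 44.5% on X against 41.9% to 48.5%. For Ser2P the order depended on the line, with 29.7% on X against 23.4% to 27.4% for the S2-AbdA list and 10.2% against 10.6% to 12.6% for the S2 list. HA-AbdA peaks without any of the 6 factors in S2-AbdA cells were the fewest on X, at 24.3% (22.2 to 26.6), against 26.2% to 33.4%.

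The strength of HA-AbdA peaks also differed by partner. HA-AbdA peaks on M1BP of S2-AbdA cells had a mean score rank of 53.7 on X, against 62.4 on the autosomal arms. On Rpb3 of S2-AbdA cells the mean rank was 52.3 on X and 60.2 on the autosomal arms. For HA-AbdA peaks without any factor the ranks were close, at 33.1 on X and 34.0 on the autosomal arms. The gap in rank between X and autosomes was thus smaller without a factor than on Rpb3 or M1BP.

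Factor pairs overlapped less on X in most, not all, combinations. For each line the share of one factor's peaks that overlap another was computed for 30 ordered pairs, 60 in all. X was the lowest of the 5 arms in 37 pairs, within the range in 13 and the highest in 10. By line, X was the lowest in 18 of 30 pairs in S2-AbdA cells and in 19 of 30 in S2 cells. Shares onto Rpb3 were the lowest on X for all 5 other factors in both lines. With the recurrent sites left out, the difference for M1BP on Rpb3 in S2-AbdA cells was -1.06 points (-7.31 with all peaks), and that for dRing on Rpb3 was -1.76 (-7.97) in S2-AbdA cells and -0.834 (-12.3) in S2 cells. In S2-AbdA cells, 34.1% of E(z) peaks on X had Rpb3, against 46.8% to 56.1% on the autosomal arms, and 56.1% of Ser2P peaks did, against 64.6% to 67.1%.

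Shares onto E(z) were the lowest on X in 8 of 10 pairs. Of Rpb3 peaks in S2-AbdA cells, 12.4% on X had E(z), against 22.9% to 26.3% on the autosomal arms. Of Ser2P peaks in S2 cells, 42.8% on X had E(z), against 57.7% to 67.0%. The Polycomb pair itself did not follow that order. In S2-AbdA cells 49.6% of dRing peaks on X had E(z), within the autosomal range of 46.5% to 57.3%. In S2 cells 71.8% of dRing peaks on X had E(z), the highest of the 5 arms, against 66.3% to 70.3%, and this difference turned without the recurrent sites. For the Rpb3 and Ser2P examples no value without those sites is given. The density ratio of E(z) was 0.638 in S2-AbdA cells and 0.687 in S2 cells, and that of Ser2P was 1.03 and 0.924. Whether the density of the overlapped factor had a part in the pair shares was not tested.

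Shares onto elongating polymerase went the other way, with X the highest arm in 7 of 10 pairs. In S2-AbdA cells 60.4% (56.3 to 64.5) of dRing peaks on X overlapped Ser2P, against 47.6% to 54.4% on the autosomal arms. For M1BP the share was 57.4% (53.9 to 60.8), against 43.9% to 50.3%, and for E(z) it was 60.7%, against 48.6% to 53.7%. In S2 cells 48.4% of dRing peaks on X overlapped Ser2P, against 34.8% to 39.9%. Ser2P peaks are broad, and when peak centres had to lie within 250 bp the excess over the pooled autosomal arms turned for M1BP and E(z) in both lines, for Rpb3 in S2-AbdA cells and for dRing in S2 cells. For dRing in S2-AbdA cells the excess was then 0.0709 points, against 10.6 with a 1 bp overlap. Without the recurrent sites it turned for E(z) in both lines and for dRing in S2 cells.

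**Figure D4:**
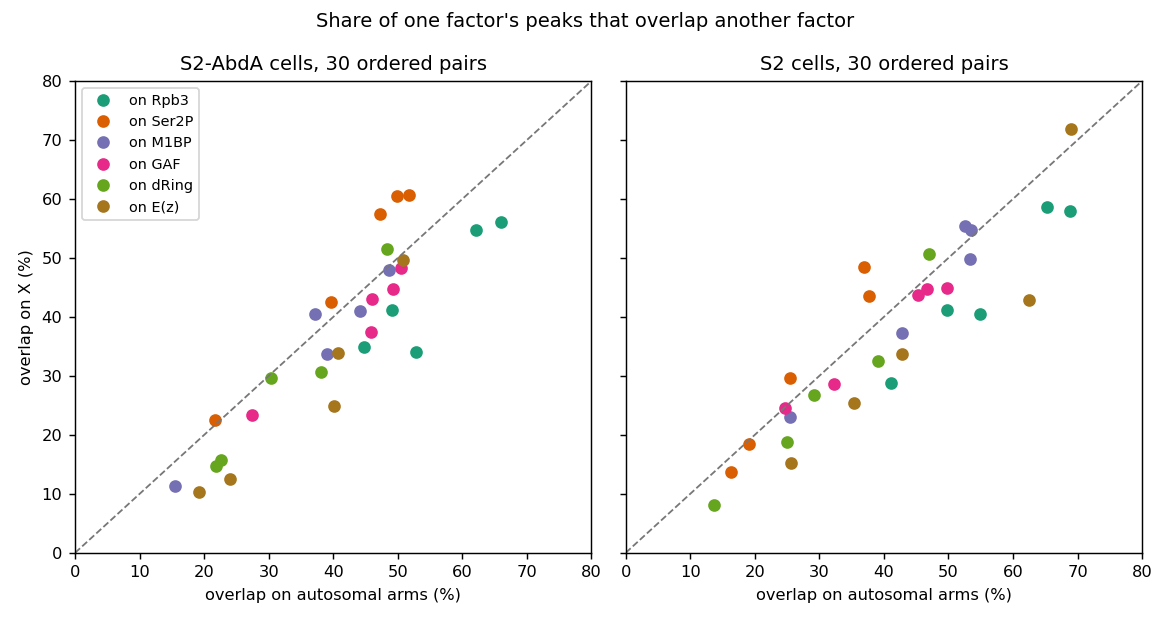
Each point is an ordered pair of factors, with its overlap share on the pooled autosomal arms on the horizontal axis, its share on X on the vertical axis and the colour naming the factor overlapped; the dashed line marks equal shares. Points for overlap with Rpb3 lie below the line in both lines, and most points for overlap with Ser2P lie on or above it, up to 60.7% on X for E(z) peaks in S2-AbdA cells.

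Gains and losses between the lines were counted after merging the lists of both lines into regions, kept where both had a peak, gained where S2-AbdA cells alone did and lost where S2 cells alone did. On X, kept regions were a smaller share than on any autosomal arm for 5 of 6 factors, and a larger share for dRing. For E(z) the kept share was 64.7% (60.9 to 68.3) on X, almost equal to the 64.9% of 2R. For Ser2P it was 38.8% (35.2 to 42.6) on X, an interval that also reached the lowest autosomal arm, 41.7%. Over the 5 arms, 11.7% of Rpb3 regions were gained and 18.8% lost, and X had 224 gained (12.5%) and 409 lost (22.8%) of 1794. The lost share of Rpb3 was 22.8% on X (20.9 to 24.8), against 16.8% to 19.5% on the autosomal arms.

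For M1BP, 7.4% of regions on the 5 arms were gained and 18.4% lost. X had 86 gained (8.36%) and 220 lost (21.4%) of 1029 M1BP regions, and the lost share was 16.6% to 18.4% on the autosomal arms. For E(z), 12.7% of all regions were gained and 20.6% lost. X had 73 gained (11.2%) and 158 lost of 654 E(z) regions. The lost share was 24.2% (20.9 to 27.6) on X, against 19.1% to 21.0% on the autosomal arms. The E(z) difference in lost regions was 4.15 points with all peaks, 8.20 without the recurrent sites and -0.112 among the higher-scoring 50% of each list. The number of factors with X as the highest arm for losses was 4, namely Rpb3, M1BP, E(z) and GAF, and 2 among the higher-scoring 50%. For E(z) and GAF the interval on X reached the highest autosomal arm.

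Ser2P and GAF had more peaks in S2-AbdA cells, and X had the highest gained share of the 5 arms for both. For Ser2P, 56.6% of all regions were gained and 1.52% lost. X had 421 gained of 698 Ser2P regions, or 60.3% (56.6 to 64.0), against 53.8% to 57.2% on the autosomal arms, and 6 lost (0.86%). The excess of gained Ser2P regions over the pooled autosomal arms was 4.604 points, 1.10 without the recurrent sites and 1.32 with both lists limited to the same length. For GAF, 47.8% of all regions were gained and 11.4% lost. X had 982 gained of 1939 GAF regions, or 50.6% (48.4 to 52.9), against 46.0% to 48.7%. It had 232 lost, or 11.96% (10.6 to 13.5), against 10.4% to 11.9%. With both GAF lists limited to the same length the lost share was lower on X than on the pooled autosomal arms. The GAF lists also differed in peaks outside the 5 arms and chromosome 4, at 0.609% in S2-AbdA cells and 23.7% in S2 cells.

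dRing differed from the other factors. Over the 5 arms 42.8% of dRing regions were gained and 23.4% lost, and X had 282 gained (39.1%) and 152 lost (21.1%) of 722. Its kept share was 39.9% (36.3 to 43.6) on X, against 31.5% to 33.9% on the autosomal arms. In base pairs too, the dRing lists of the lines were most alike on X, with a shared length over joint length of 0.481, against 0.379 to 0.423 on the autosomal arms. That measure was the lowest on X for Rpb3, Ser2P, M1BP and GAF, and within the autosomal range for E(z).

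**Figure D5:**
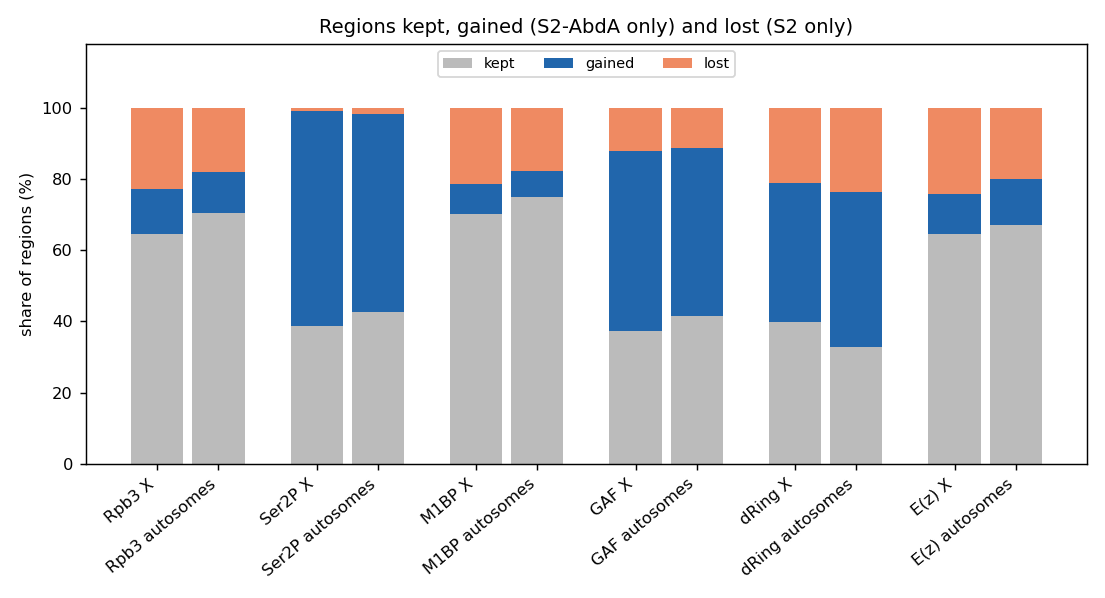
Stacked bars give the percentages of merged regions that were kept (grey), gained in S2-AbdA cells (blue) and lost (orange) for each factor, on X at the left of each pair and on the pooled autosomal arms at the right. The lost part is larger on X for Rpb3, with 22.8% against 18.0%, and the kept part is larger on X for dRing, with 39.9% against 32.9%.

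Peaks kept in both lines differed between X and autosomes in how their score rank moved. Only pairs of peaks that overlapped each other and no further peak of that factor were used. On X there were 655 such pairs for GAF and 257 for Ser2P. No interval was computed for the shifts. GAF peaks of these pairs ranked higher in S2-AbdA cells than in S2 cells by 24.9 on X, against 17.6 to 19.1 on the autosomal arms. Ser2P peaks ranked higher by 20.9 on X, against 18.4 to 20.6. For Rpb3 the shift was -4.48 on X, against -4.00 to -2.22, and for M1BP it was -6.63, against -5.62 to -5.31. For E(z) the shift was -4.48, against -3.87 to -2.58. Each of these shifts on X lay outside the autosomal range, with the same sign as on the autosomes. For dRing the shift of 6.49 lay within the range of 6.18 to 10.6. Ranks are relative to each list, whose lengths differed between the lines. The sign of the shift followed list length. It was positive for GAF, Ser2P and dRing, with more peaks on the 5 arms in S2-AbdA cells, and negative for Rpb3, M1BP and E(z), with fewer. The sign is therefore no measure of a change in binding, and the part of list length in the size of the shifts was not tested.

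HA-AbdA lay at a smaller share of regions on X in nearly all classes of change. Over gained, lost and kept regions of the 6 factors, X had the lowest AbdA share of the 5 arms in 17 of 18 classes. Among them, lost Ser2P had HA-AbdA at only 2 of 6 regions on X. In several others the interval on X reached the lowest autosomal arm. Gained Rpb3 regions had 58.9% (52.2 to 65.4) on X against 60.4%, and gained E(z) regions 60.3% (48.1 to 71.5) against 63.5%. The count was not repeated without the recurrent sites. At gained GAF regions HA-AbdA was present at 395 of 982 on X, or 40.2% (37.1 to 43.4), against 51.7% to 58.6% on the autosomal arms. At kept GAF regions the share was 57.8% on X, against 61.6% to 65.3%. At kept E(z) regions it was 43.0% (38.3 to 47.9) on X, against 56.3% to 65.7%, and at kept dRing regions 34.7%, against 45.8% to 53.9%. Gained dRing regions were the class within the autosomal range, with 56.0% on X against 48.3% to 59.9%.

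Gained and lost peaks on X included high-ranked ones. The best gained M1BP peak of X, chrX:21210307-21211076, ranked 3 of 5058 and carried HA-AbdA, Rpb3 of both lines and dRing in S2-AbdA cells. The best gained GAF peak, chrX:3566071-3566709, ranked 6 of 9436 and carried HA-AbdA and E(z) in S2 cells. The HA-AbdA peak there ranked 7359 of 10273. The best gained dRing peak, chrX:8699591-8700249, ranked 4 of 4141 without HA-AbdA, on E(z), GAF and Rpb3 of both lines. The best gained Rpb3 peak, chrX:21893190-21893722, ranked 17 of 8785 and carried HA-AbdA with Ser2P, M1BP and GAF of both lines. The best gained peaks of Ser2P and E(z) stood lower in their lists. The gained Ser2P peak was chrX:5194003-5194293, ranked 115 of 3589 with no other factor, and the gained E(z) peak was chrX:5570193-5571611, ranked 450 of 3931.

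Among losses, the best GAF peak, chrX:3647413-3648247, ranked 4 of 5359 in S2 cells and had no HA-AbdA. It lay within one of the places where Ser2P, M1BP, dRing and E(z) of both lines all had peaks. The merged region that begins with this peak, chrX:3647413-3656142, held peaks of all 13 lists. HA-AbdA and GAF of S2-AbdA cells thus had peaks elsewhere in that region. The best lost M1BP peak, chrX:13739660-13740228, ranked 13 of 5665 and carried HA-AbdA, and it overlaps the end of the HA-AbdA group at chrX:13675995-13740216. The HA-AbdA peak there ranked 7937 of 10273. The best lost Rpb3 peak, chrX:4581934-4582585, ranked 23 of 9225 and carried HA-AbdA with Ser2P, M1BP and E(z) of both lines. The best lost dRing peak, chrX:4490217-4491803, ranked 21 of 3025 and carried HA-AbdA with E(z) and GAF of both lines. The best lost peaks of E(z) and Ser2P on X stood lower in their lists than those of the other factors. The best of E(z), chrX:6909192-6909514, ranked 1469 of 4270, and that of Ser2P, chrX:12994622-12994924, ranked 185 of 1654.

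All 13 lists merged gave 2889 regions on X, or 129 per Mb, against 131 to 145 per Mb on the autosomal arms. A smaller share of regions was shared by many lists on X than on the autosomal arms. Peaks of at least 8 lists met at 295 regions of X, or 10.2%, against 13.5% to 15.1% on the autosomal arms. Regions with all 13 lists numbered 7 on X, or 0.242%, against 0.553% to 0.887%. These counts are not separate from the recurrent sites, which come from 9 of the same lists. Those sites were also fewer on X, at 8.3 per Mb against 11.4 to 13.0. The counts were not repeated without them. The widest region of X with all 13 lists was chrX:2186124-2204965, 18.8 kb long. Another, chrX:12635841-12648600, lies inside the HA-AbdA group with most peaks on X.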

How the data were processed

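Peaks of 13 lists, each for an antibody and a line, were read from the deposited files, which give chromosome, start, end, name and a score. The deposited score, per the files, is positive with no unit named, so it was used to rank peaks within a list and was never compared between lists. BWA 0.7.12, MACS2 and build dm3 are named in the submitters' processing notes. Their settings were not given in the sources used here, nor was the way the 2 replicates were joined. Whether replicates were separate cultures is not stated in the labels. The HA control of S2 cells and the 6 inputs have no list analysed here, so background in control samples is not given.

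Coordinates are dm3 and 1-based. The genome and annotation at hand were of another release, so no gene, promoter or sequence was assigned. An arm's span was its largest peak end in any list. Overlap meant 1 bp. Shares have exact Clopper-Pearson 95% intervals and density ratios exact conditional binomial ones. Depth is unknown. Python 3.11.15, pandas 2.3.3, numpy 2.4.6, scipy 1.17.1 and matplotlib 3.10.9 were used. The overlap code was tested on simulated data and compared with bedtools 2.31.1 over 156 counts, and 0 were unequal.

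Named peaks are the highest-scoring of X in each list, the highest gained and lost of each factor, the 3 groups of HA-AbdA with most peaks (10 kb or less between neighbours), and the bins of X with most and fewest peaks. Merged regions with all 13 lists, and which named peaks the text describes, were chosen after their values were seen. The members, comparisons and rules were chosen with earlier results of these data known. Leaving out the GAF lists and the recurrent sites were alternatives chosen after seeing the data.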

Additional observations from a re-analysis of the deposited data

How the results depend on the processing

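The 5 arms are few, each list joins both replicates, and the intervals cover counting error only, so none of these results has a replicate check. No paired analysis was possible because each list joins both replicates of its group, and for the same reason no replicate could be left out. Leaving any autosomal arm out of the pool kept the median density ratio between 0.832 and 0.865. X was the lowest arm in 8 to 10 lists for density under the 6 other settings, and in 12 of 12 lists for the AbdA share under the 3 planned overlap and score settings, with smaller gaps when centres had to lie within 250 bp. The cause of the changes below was not tested.

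The median density ratio of 0.844 became 0.776 in the higher-scoring 50% of each list and 0.898 per 100 merged regions. In the higher-scoring 50%, X had the highest median width in 7 lists (4 with all peaks), the highest gained share for 4 factors (2) and the highest lost share for 2 (4). Without the GAF lists the gained count was 1, GAF being 1 of the 2 factors counted with all peaks. X was then the lowest in 24 of the remaining pairs (37 of 60 with GAF). Both sets are smaller by construction, so the lower counts alone show no change. Without recurrent sites X had the lowest mean rank in 3 lists (6 with all peaks).

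Where X lay outside the range of the autosomal arms with all peaks, the differences of X minus the pooled autosomal arms that changed sign are as follows. Differences for which X lay within that range changed sign too and are not listed. Without recurrent sites, the Ser2P density ratio in S2 cells was 1.10, the E(z) width difference in S2-AbdA cells -3 bp, the rank difference 0.115 for Ser2P in S2-AbdA cells and -3.52 and -0.86 for E(z) in S2-AbdA and S2 cells, and the AbdA share at dRing 2.36 and 3.55 points. Among pairs of S2-AbdA cells it was -6.03 points for dRing on M1BP, -2.47 for E(z) on Ser2P and 0.725 for E(z) on GAF. In S2 cells it was 0.231 for GAF on M1BP, -1.27 for dRing on Ser2P, -1.85 for dRing on E(z), -3.38 for E(z) on Ser2P and -0.635 for E(z) on dRing. In the higher-scoring 50%, the HA-AbdA width difference was 6 bp, and the lost share 1.11 points for Ser2P, 0.598 for dRing and -0.112 for E(z). Pairs there gave -3.49 for Rpb3 on Ser2P and 0.699 for M1BP on GAF in S2-AbdA cells. In S2 cells they gave 2.83 for Ser2P on GAF, 5.84 for Ser2P on dRing, -1.41 for M1BP on Ser2P, 0.621 for GAF on M1BP and 1.23 for GAF on dRing. With centres within 250 bp, overlap with Ser2P gave -1.77 for Rpb3, -0.144 for M1BP and -3.43 for E(z) in S2-AbdA cells, and -0.592 for M1BP, -0.677 for dRing and -2.74 for E(z) in S2 cells, where dRing on E(z) gave -0.592. With lists of equal length the lost share was 2.87 points for Ser2P and -1.15 for GAF. With peaks up to 1 kb apart joined, the E(z) width difference in S2-AbdA cells was -8 bp.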
